A study of Mus musculus with 8 samples.

Results

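Hox genes encode homeodomain transcription factors that give cells their position along the head-to-tail axis of the embryo. In mammals they lie in clusters, and the order of the genes along a cluster, numbered by paralog group, follows the order in which they are switched on in the embryo and how far forward they are expressed: low-numbered genes act early and towards the head, high-numbered genes late and towards the tail. In embryonic stem cells (ESCs) Hox genes are nearly silent and are a standard example of bivalent genes, whose promoters carry an activating histone H3 mark together with the repressive mark set by Polycomb complexes. HIRA, with its partners UBN1 and UBN2, is a chaperone that places the histone variant H3.3 into chromatin outside DNA replication. No chromatin measurement entered the values given here, which are RNA counts.

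Members were chosen by a symbol made of Hox, a cluster letter and a paralog number, and 38 of the 55418 genes in the count tables are described here. They were 10 genes of the HoxA cluster, 10 of HoxB, 9 of HoxC and 9 of HoxD. The RNA came from E14 cells, a mouse ESC line, grown on gelatin with serum and LIF, and was sequenced in 8 libraries, 2 for each of 4 conditions. The depleted cells had received a plasmid for an shRNA against Hira, Ubn1 or Ubn2, and the control cells are called wild type in the labels, whereas the methods name luciferase as the target of the control shRNA. Cells received 1000 ng of a pSuper-puro plasmid and, 24 hours later, 1 µg/ml puromycin for 3 days. A knockdown of this kind lowers a transcript in a transiently transfected, drug-selected population and does not remove the gene. Nothing in the labels says that replicates came from separate cultures, so p-values measure the spread between these libraries, which may be technical.

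Library totals lay between 19710040 and 32706053 counts. Hira was at 89.4 and 97.6 CPM (the count of a gene scaled to a common library total with TMM) in the control libraries and at 10.0 and 10.4 in the Hira-depleted ones. Ubn1 was at 53.0 and 44.1 CPM in control and at 23.8 and 23.8 after its depletion, and Ubn2 at 50.1 and 51.7 in control and at 30.1 and 24.6 after its depletion, so that the remaining share of the targeted transcript was largest for Ubn2. The ESC markers Pou5f1, Sox2, Nanog and 7 others summed to 7094 and 7383 CPM in the control libraries. In the depleted libraries they summed to 6116 to 6520 CPM, each below both controls. The members did not move alike. After Hira depletion Sox2 was at 417 and 447 CPM, against 351 and 394 in control. Nanog was at 598 and 525 CPM there, against 472 and 424. Dppa5a went the other way, at 913 and 921 CPM against 1302 and 1291 in control.

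In the GRCm38 build the genes described span chr6:52162417-52260880 (98.5 kb) in HoxA, chr11:96194316-96368256 (173.9 kb) in HoxB, chr15:102921103-103036852 (115.8 kb) in HoxC and chr2:74668310-74765142 (96.8 kb) in HoxD, by the GENCODE gene models. RefSeq (GRCm38.p6) gave 24 promoters for 22 of the 38 members. Windows of 250 bases upstream of the transcription start are shown for Hoxa2, Hoxa5 and Hoxa9, which were called higher after Hira depletion, and for Hoxd13, the HoxD gene with the most counts, which was not called against control. CpG dinucleotides are in capitals, and each sequence is given 5′ to 3′ on the strand of its gene.
Hoxa2, chr6:52164832-52165081, minus strand: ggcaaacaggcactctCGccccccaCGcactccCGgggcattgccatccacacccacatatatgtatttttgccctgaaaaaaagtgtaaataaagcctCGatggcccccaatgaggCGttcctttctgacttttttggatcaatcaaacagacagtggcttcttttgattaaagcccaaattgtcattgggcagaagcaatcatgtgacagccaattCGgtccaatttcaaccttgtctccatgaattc
Hoxa5, chr6:52204588-52204837, minus strand: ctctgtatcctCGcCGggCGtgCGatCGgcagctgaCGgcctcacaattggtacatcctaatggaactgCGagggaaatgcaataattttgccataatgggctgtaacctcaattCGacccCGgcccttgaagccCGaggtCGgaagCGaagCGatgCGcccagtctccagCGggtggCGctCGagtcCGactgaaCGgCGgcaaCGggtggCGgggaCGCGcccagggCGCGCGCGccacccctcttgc
Hoxa9, chr6:52227371-52227620, minus strand: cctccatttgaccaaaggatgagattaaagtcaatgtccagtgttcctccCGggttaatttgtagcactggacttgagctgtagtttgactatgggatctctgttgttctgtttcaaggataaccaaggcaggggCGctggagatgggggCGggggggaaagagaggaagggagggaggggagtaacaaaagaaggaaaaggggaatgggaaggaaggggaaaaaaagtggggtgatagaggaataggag
Hoxd13, chr2:74667975-74668224, plus strand: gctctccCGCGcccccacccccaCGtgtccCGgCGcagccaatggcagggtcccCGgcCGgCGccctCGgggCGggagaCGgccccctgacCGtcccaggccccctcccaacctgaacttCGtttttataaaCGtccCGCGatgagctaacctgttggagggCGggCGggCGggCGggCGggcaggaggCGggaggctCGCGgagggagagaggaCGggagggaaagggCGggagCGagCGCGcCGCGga
None of the 4 windows overlaps a GENCODE exon. The Hoxa2 window lies in an intron of Gm28308, the Hoxa5 window in introns of Hoxa3, Gm28308 and Hoxaas3, the Hoxa9 window in an intron of a longer Hoxa9 transcript, and the Hoxd13 window between genes. They hold 6, 28, 3 and 31 CpGs, so the genes called after Hira depletion have both CpG-rich and CpG-poor windows.

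Over the 24 Hox promoter windows the median number of CpGs was 12.5, from 2 to 35, against 6.0 over all 32851 promoters of the table. The median GC content was 58.6% against 52.4%, and the median CpG observed-to-expected ratio 0.721 against 0.373. Searched on both strands, CCAAT, the box bound by NF-Y, was in 14 of the 24 windows (58.3%) and in 33.8% of all promoters. TATAAA, the TATA box core, was in 4 windows (16.7%) against 12.4% of all. AGGTCA, the core of nuclear receptor sites such as those of retinoic acid receptors, was in 6 windows (25.0%) against 14.0%. TGATNNAT, a composite site of PBX and HOX proteins, was in 4 windows (16.7%) against 7.68%, and TTTATG, a site of CDX and posterior HOX proteins, was in 5 windows (20.8%) against 10.8%. Matches of different motifs may share bases, and a match describes letters in these windows only. Most windows belong to HoxA and HoxD, with Hoxa10 and Hoxd11 repeated. HoxB has those of Hoxb1, Hoxb4 and Hoxb8, and HoxC that of Hoxc4 alone. The Hoxa3 and Hoxc4 windows lie wholly in untranslated parts of GENCODE exons, and some others do in part. These medians and shares therefore do not describe the promoters of all members.

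Hox transcripts were rare in all libraries. The 38 members together took 385 to 985 counts per library, and 15 of them stayed under 10 counts in every library, whereas 5 reached at least 10 counts in all 8. One count corresponds to 0.0303 to 0.0510 CPM, so that a gene at 0.1 CPM rests on a few reads. Per kilobase of GENCODE exon, the highest control levels were those of Hoxc12 at 2.19 ± 0.487 RPKM (SD, n = 2) and Hoxc13 at 1.82 ± 0.106. These neighbours at the 5′ end of HoxC differed by less than the spread of the Hoxc12 values. Hoxc4 followed at 0.809 ± 0.0887 RPKM. Hoxb13 was at 0.648 ± 0.0505, Hoxd13 at 0.534 ± 0.0212 and Hoxb9 at 0.532 ± 0.131 RPKM, and the other 32 members were each at or below 0.336 RPKM in control cells. Of these 6 genes 4 belong to paralog groups 12 and 13.

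**Figure D1:**
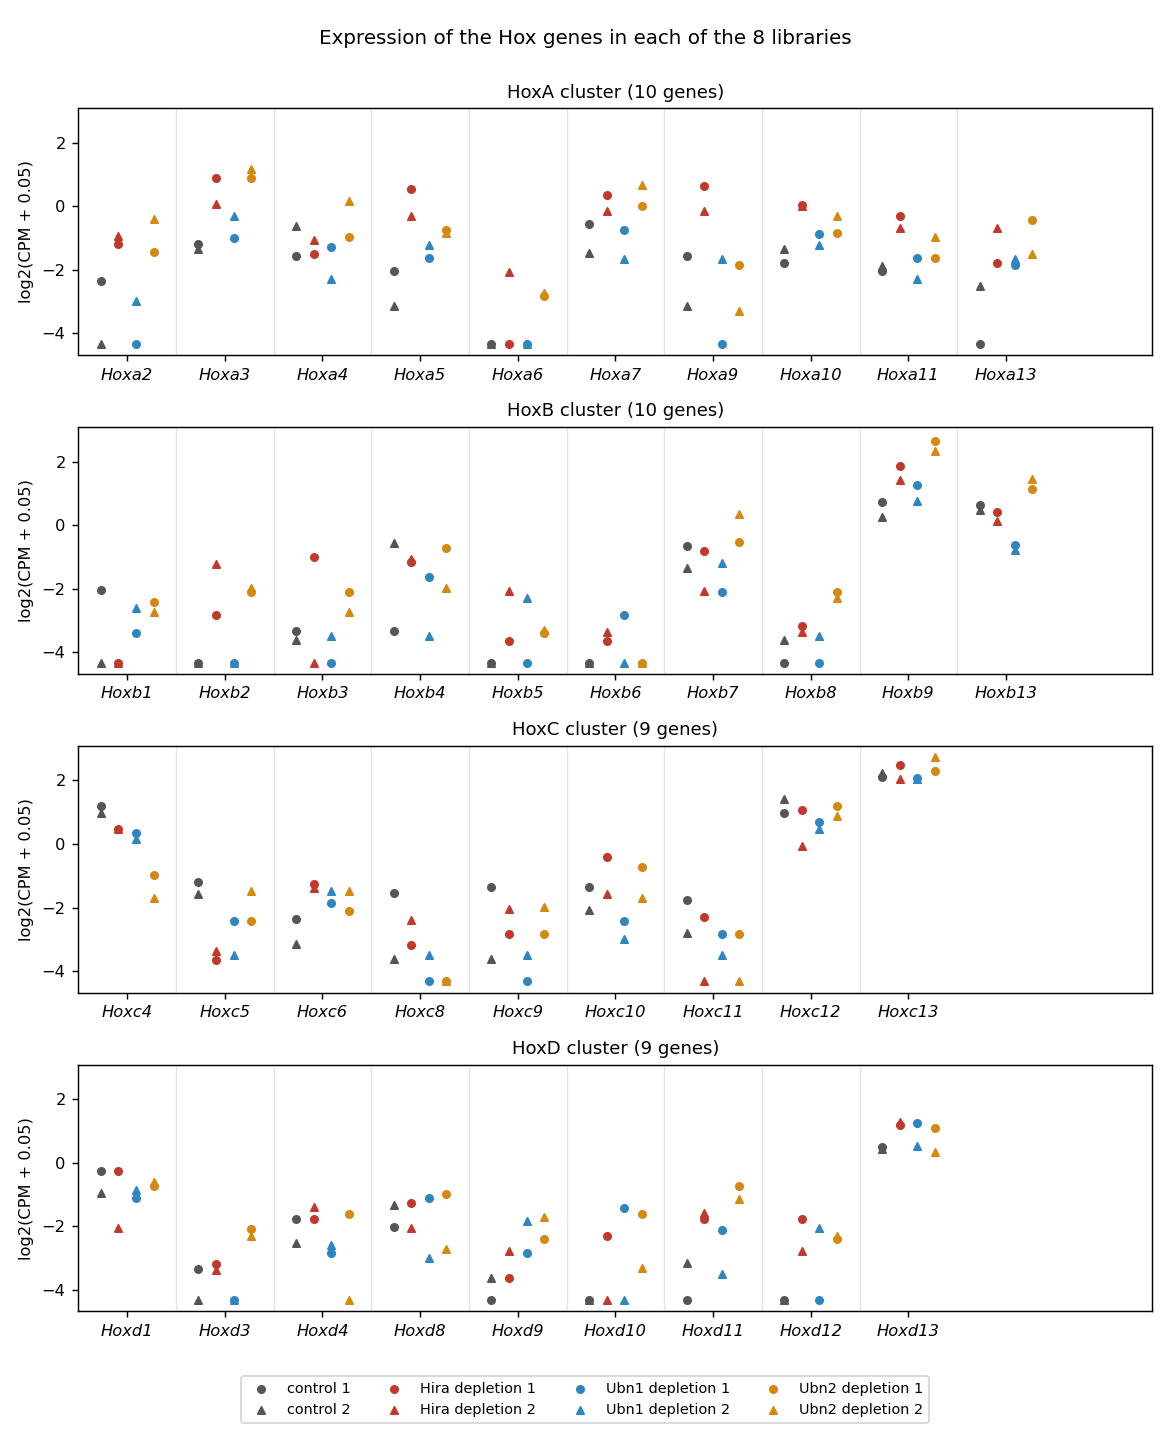
Expression of the 38 Hox genes in the 8 libraries, as log2 of CPM plus 0.05, by cluster (panels) and paralog group (left to right); colour gives the condition and the symbol the replicate number, and the lowest row of points marks 0 counts. HoxA genes from Hoxa2 to Hoxa11 lie above control in both Hira-depleted libraries except Hoxa4 and Hoxa6, and Hoxc4 falls to 0.460 and 0.255 CPM in the Ubn2-depleted libraries.

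Summed over the 10 HoxA genes, expression was 2.39 and 2.07 CPM in control cells, 8.63 and 6.64 in Hira-depleted cells, 2.64 and 2.73 in Ubn1-depleted cells, and 5.88 and 7.70 in Ubn2-depleted cells. The Hira and Ubn2 libraries lay above both controls, at 3.42-fold and 3.04-fold of the control mean, and the Ubn1 libraries lay above both controls by less, at 1.20-fold. HoxB summed to 3.99 and 3.52 CPM in control, 6.45 and 4.93 in Hira-depleted cells, 3.51 and 2.96 in Ubn1-depleted cells, and 10.3 and 9.68 in Ubn2-depleted cells, the last at 2.67-fold of the control mean. HoxC summed to 10.2 and 9.87 CPM in control, 10.4 and 7.30 in Hira-depleted cells, 7.57 and 6.99 in Ubn1-depleted cells, and 8.60 and 9.68 in Ubn2-depleted cells. Both the Ubn1 and the Ubn2 libraries were below both controls in HoxC, while the Hira libraries bracketed them. Without Hoxc4, left out after its values were seen, HoxC summed to 7.94 and 7.95 CPM in control, 6.34 and 5.91 in Ubn1-depleted cells, still below, and 8.14 and 9.43 in Ubn2-depleted cells, above both controls. HoxD summed to 2.63 and 2.33 CPM in control, 4.36 and 3.61 in Hira-depleted cells, 3.83 and 2.53 in Ubn1-depleted cells, and 4.64 and 2.96 in Ubn2-depleted cells. These sums were not tested, since 2 libraries against 2 cannot give a two-sided exact permutation p below 0.333. In bulk RNA, more cells expressing a gene and more RNA per cell cannot be told apart.

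**Figure D2:**
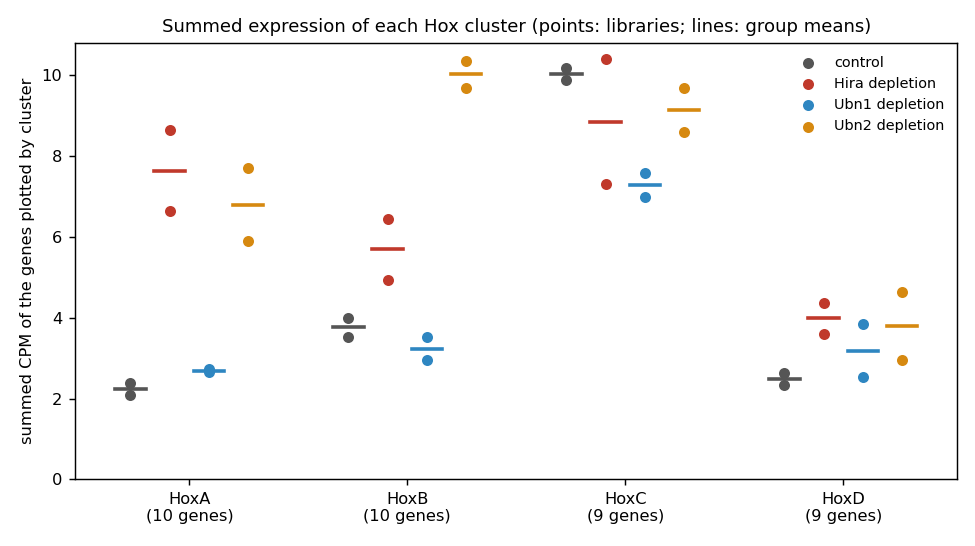
Summed CPM of the 10 HoxA, 10 HoxB, 9 HoxC and 9 HoxD genes; points are libraries and short lines the means of 2 libraries, with colours for the 4 conditions. HoxA is high after Hira and Ubn2 depletion (group means of 7.63 and 6.79 CPM against 2.23 in control), HoxB is highest after Ubn2 depletion (10.01 CPM), and HoxC stays between 6.99 and 10.4 CPM in all libraries.

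By paralog group, the 11 members of groups 1 to 4 summed to 4.27 ± 0.221 CPM in control, 5.24 ± 0.899 in Hira-depleted cells, 2.88 ± 0.00525 in Ubn1-depleted cells and 5.35 ± 0.357 in Ubn2-depleted cells (SD, n = 2). Groups 5 to 8, with 11 members, gave 1.96 ± 0.677, 3.54 ± 0.776, 1.78 ± 0.127 and 3.77 ± 0.720 CPM in the same order. Groups 9 to 13, with 16 members, gave 12.3 ± 0.0852, 17.4 ± 3.51, 11.7 ± 1.54 and 20.6 ± 0.683 CPM. The ratio of the Hira mean to the control mean was 1.23, 1.81 and 1.42 in anterior, central and posterior groups, and that of the Ubn2 mean 1.25, 1.93 and 1.68, all of them above 1. Hoxc4 alone made up 2.08 CPM of the anterior control sum and was at 1.33 after Hira and 0.357 after Ubn2 depletion. It lowers both anterior ratios, and their rank among the positions depends on this gene.

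After Hira depletion, 7 Hox genes rose and none fell among the 17 that could be tested with edgeR (quasi-likelihood test, Benjamini-Hochberg adjusted p below 0.05 and a fold change above 1.5). Of the 7, 6 were HoxA genes, of 8 tested in that cluster, and the other was Hoxb9. Over all 19035 genes tested, 10.8% were called higher and 5.4% lower. Of the 17 tested members, 6 passed the filter on low counts through the Hira-depleted libraries alone, and all 6 were called, so the count cannot be set against that background as if the filter were neutral. The median log2 fold change was 0.78 over the tested members and 0.01 over all genes tested. The same filter brings genes that are high after Hira depletion into this median, which limits the comparison with all genes.

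Hoxa2, which specifies the second pharyngeal arch, was at 0.146 and 0 CPM in control and at 0.393 and 0.474 after Hira depletion. Hoxa3, required for thymus and parathyroid formation, went from 0.389 and 0.346 to 1.82 and 0.996 CPM. In each of these anterior genes both Hira libraries lay above both controls, and the log2 fold changes were 2.76 (SE 0.92, adjusted p = 0.0237) and 1.95 (SE 0.49, adjusted p = 0.00390) in edgeR. Hoxa2 rested on 23 counts in the Hira libraries against 3 in the controls, a ratio of 7.42 with a 95% counting interval of 2.24 to 38.6, which covers counting error only.

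Hoxa5, a regulator of lung and axial skeleton development, was at 0.195 and 0.0629 CPM in control and at 1.39 and 0.759 after Hira depletion. Its 62 counts against 6 gave a ratio of 10.0, with a counting interval of 4.34 to 28.3, and a fitted log2 fold change of 3.18 (SE 0.65, adjusted p = 0.000721, edgeR). Hoxa9, known for its part in blood stem cells and leukaemia, was at 0.292 and 0.0629 CPM in control and at 1.51 and 0.854, with a log2 fold change of 2.90 (SE 0.63, adjusted p = 0.00121, edgeR). In both genes the lower Hira library was over the higher control by a clear margin, and replicate 1 of the Hira libraries was the higher one. Hoxa10, a gene of uterus and limb development, went from 0.243 and 0.346 to 0.969 and 0.949 CPM (log2 fold change 1.64, SE 0.52, adjusted p = 0.0184, edgeR). Hoxa11, needed for the forearm and kidney, went from 0.195 and 0.220 to 0.757 and 0.569 CPM (log2 fold change 1.65, SE 0.60, adjusted p = 0.0363, edgeR). Neither posterior gene overlapped between the groups.

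Hoxa7 was at 0.633 and 0.314 CPM in control and at 1.24 and 0.854 after Hira depletion, without overlap, but it missed the threshold (log2 fold change 1.21, SE 0.50, adjusted p = 0.0657, edgeR), except when 10 counts were required in every library. Hoxa4, with 0.292 and 0.597 CPM against 0.303 and 0.427, was the remaining HoxA gene tested and its groups overlapped. Hoxb9, a posterior HoxB gene of the thoracic region, rose from 1.61 and 1.13 to 3.60 and 2.61 CPM (log2 fold change 1.21, SE 0.32, adjusted p = 0.00556, edgeR). The most abundant genes of the other clusters were not called. Hoxc13, a gene of hair and nail formation, was at 4.28 and 4.65 CPM in control against 5.60 and 4.08. Hoxd13, which shapes digits, was at 1.36 and 1.29 CPM in control against 2.24 and 2.37, above both controls (log2 fold change 0.78, SE 0.32, adjusted p = 0.0668, edgeR). Hoxb13 was at 1.27 and 1.04 CPM, below both of its controls without a call.

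Counted over the 38 members whether or not they were tested, both Hira libraries were above both controls in 17 and below in 3, while among all genes with a count 27.3% were above and 23.2% below. By cluster the members above were 8 of 10 in HoxA, 5 of 10 in HoxB, 1 of 9 in HoxC and 3 of 9 in HoxD. The 21 untested members had at most 23 counts in a Hira library (Hoxc10), and 6 of all members (Hoxa6, Hoxb2, Hoxb5, Hoxb6, Hoxd10 and Hoxd12) had no count in either control. Hoxb3, for example, had 15 counts in Hira replicate 1 and 0 in replicate 2.

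Without Hira replicate 1, only Hoxa5 and Hoxa9 stayed called and Hoxc12 was called lower, and without control replicate 2 the calls were Hoxa3, Hoxa5, Hoxa9 and, in addition, Hoxa13. Hoxa10 and Hoxa11 lost their calls whichever of the 4 libraries was left out, and without Hira replicate 2 Hoxa2 was lost too and Hoxb3 called. DESeq2 called 4 genes, Hoxa3, Hoxa5, Hoxa9 and Hoxb9, of 12 with an adjusted p. Exons of Hoxa11, Hoxa3 and Hoxa7 share 35.0%, 27.1% and 20.4% of their bases with other genes, mostly on the opposite strand, and those of Hoxa2 share 15.0% on the same strand. Those of Hoxb3 and Hoxb2 share 52.9% and 27.3% with Hoxb3os on the opposite strand. Those of Hoxd3 and Hoxd4 share 62.8% and 52.3% with other genes. The strand setting of the counting is not given in the sources used here, so reads of these genes and of their overlapping partners cannot be told apart, while Hoxa5, Hoxa10, Hoxb9 and Hoxc4 share none. Neural and trophoblast markers also moved with Hira depletion. Of 8 tested neural markers 5 rose and none fell, and the list of 10 summed to 423 to 427 CPM in control and 605 to 610 after Hira depletion, with none at 0 in both Hira libraries. Of 7 tested trophoblast markers 4 rose and 1 fell, and the list of 10 summed to 68.4 to 69.6 CPM in control and 103 to 134 after Hira depletion, with Prl3d1 at 0. Their part in the Hox result was not tested.

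**Figure D3:**
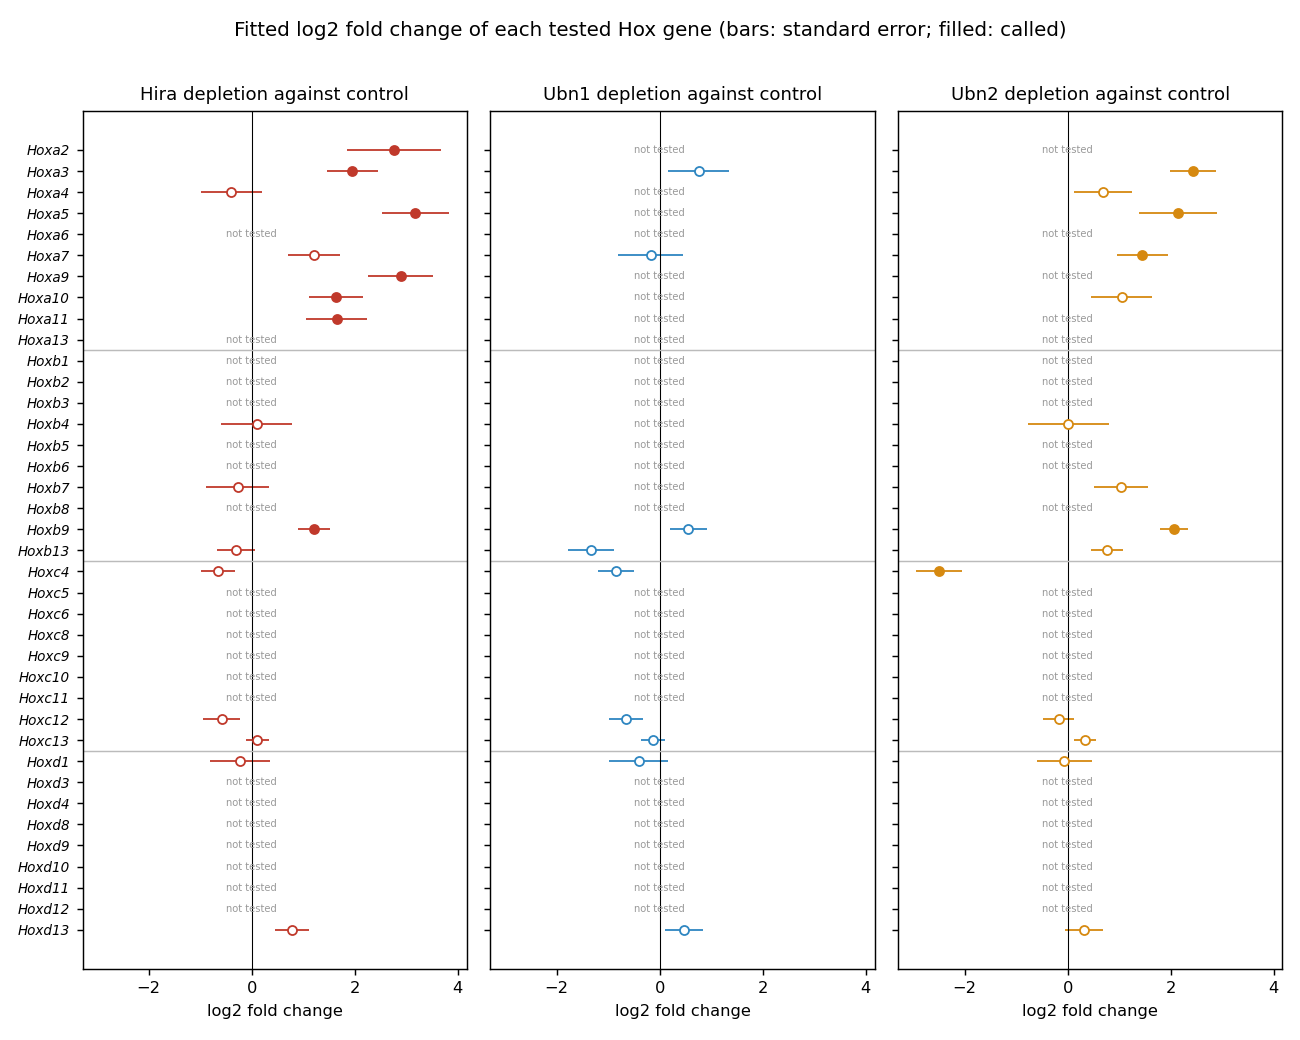
Fitted log2 fold change of each Hox gene against control after Hira, Ubn1 and Ubn2 depletion; bars are standard errors from edgeR, filled points are called (adjusted p below 0.05 and fold change above 1.5) and grey lines divide the clusters. After Hira depletion 7 genes are called higher, 6 of them in HoxA, after Ubn1 depletion none is called, and after Ubn2 depletion 4 are called higher and Hoxc4 lower at -2.50.

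After Ubn1 depletion no Hox gene was called in either direction by edgeR among 9 tested, or by DESeq2, which gave an adjusted p for 1 of them. Of all 18373 genes tested, 1.53% were called higher and 1.56% lower. At an unadjusted p below 0.05 there were 2 members in edgeR, Hoxb13 and Hoxc4, and 1 in DESeq2. Hoxb13, the prostate and tail-bud paralog, was at 1.51 and 1.35 CPM in control and at 0.593 and 0.538 after Ubn1 depletion, well below both controls (log2 fold change -1.33, SE 0.45, adjusted p = 0.0622, edgeR). Hoxc4 was at 2.24 and 1.92 CPM in control and at 1.23 and 1.08 (log2 fold change -0.84, SE 0.35, adjusted p = 0.145, edgeR). Hoxb13 was called lower when no filter was used, when at least 10 counts were required in every library and when all 8 libraries entered the fit.

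Of the HoxA genes, Hoxa3 and Hoxa7 had enough counts to be tested after Ubn1 depletion. Hoxa9 was at 0 and 0.269 CPM and Hoxa11 at 0.274 and 0.154, each overlapping its control values. Hoxa3, at 0.456 and 0.768 CPM, Hoxa5, at 0.274 and 0.384, and Hoxa10, at 0.502 and 0.384, lay above both controls. Hoxa2 was at 0 and 0.0768 CPM and Hoxa7 at 0.547 and 0.269, neither of them above both controls. In the other clusters Hoxb9 was at 2.33 and 1.65 CPM and Hoxd13 at 2.33 and 1.38, both above their controls, and Hoxc13 at 4.195 and 4.03, below its controls, all without a call. Both Ubn1 libraries were above both controls in 8 of the 38 members and below in 8, where 20.4% and 19.9% of all genes with a count did so. Both counts are near these shares, so they show no shift particular to the Hox genes. Of the 8 members below, 6 were HoxC genes, and of the 8 above, 4 were HoxA genes. This split was not tested, and several of these members had only a few counts. The median log2 fold change was -0.18 over the 9 tested members and -0.00 over all genes tested.

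After Ubn2 depletion, 4 Hox genes rose and 1 fell among 14 tested, with 9.59% of all 18219 tested genes called higher and 8.75% lower. Hoxa3, Hoxa5, Hoxa7 and Hoxb9 rose, and Hoxc4 fell. Of the tested members, 3 passed the filter through the Ubn2-depleted libraries alone, and 2 of these, Hoxa3 and Hoxa5, were called. The median log2 fold change was 0.73 over the tested members and -0.00 over all genes tested. With the filter not neutral here either, neither the calls nor this median can be set against those of all genes.

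Hoxa3 was at 1.79 and 2.19 CPM after Ubn2 depletion, against 0.389 and 0.346 in control. Hoxa5 was at 0.552 and 0.510 CPM, against 0.195 and 0.0629. In both the Ubn2 libraries were close to each other and above both controls, with log2 fold changes of 2.43 (SE 0.44, adjusted p = 0.000174) and 2.14 (SE 0.76, adjusted p = 0.0297) in edgeR. Hoxa5 rested on 22 counts against 6, a ratio of 4.64 with a counting interval of 1.82 to 14.0. Hoxa7, a central gene of the trunk, was at 0.965 and 1.53 CPM, against 0.633 and 0.314 (log2 fold change 1.45, SE 0.50, adjusted p = 0.0257, edgeR). Hoxb9 was at 6.25 and 4.94 CPM, against 1.61 and 1.13, the highest level of any HoxB gene in any library (log2 fold change 2.06, SE 0.27, adjusted p = 4.13e-06, edgeR).

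Hoxc4, the most 3′ gene of the HoxC cluster, showed the opposite direction. It was at 2.24 and 1.92 CPM in control, 1.33 and 1.33 in Hira-depleted cells, 1.23 and 1.08 in Ubn1-depleted cells and 0.460 and 0.255 in Ubn2-depleted cells. All 6 depleted libraries were below both controls, and the Ubn2 libraries were the lowest, with a log2 fold change of -2.50 (SE 0.45, adjusted p = 0.000140, edgeR). In Ubn2 replicates 1 and 2 this was 10 and 5 counts, against 46 and 61 in control.

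Hoxa9, which rose after Hira depletion, was at 0.230 and 0.0510 CPM after Ubn2 depletion, overlapping its control values, and was too low to be tested there. Hoxa2 was at 0.322 and 0.714 CPM, Hoxa10 at 0.506 and 0.765 and Hoxa11 at 0.276 and 0.459, each above both controls, where Hoxa10 was not called and the other two were not tested. Hoxb13 was at 2.16 and 2.70 CPM, above both controls (log2 fold change 0.77, SE 0.32, adjusted p = 0.0594, edgeR). Hoxc13 was at 4.83 and 6.58 CPM and Hoxd13 at 2.07 and 1.22, neither called. Over the 38 members, both Ubn2 libraries were above both controls in 22 and below in 3, against 26.4% and 25.8% of all genes with a count. The members above were 8 of 10 in HoxA, 7 of 10 in HoxB, 2 of 9 in HoxC and 5 of 9 in HoxD, and the 3 below were Hoxc4, Hoxc8 and Hoxc11. The 24 untested members had at most 15 counts in a Ubn2 library.

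Hoxa5 lost its call whichever library was left out, and Hoxa7 lost it without Ubn2 replicate 2 or control replicate 2. Hoxa2 was called higher with no filter, with all 8 libraries, without Ubn2 replicate 1 and without control replicate 1. Hoxa13 was called higher with no filter, with all 8 libraries, without Ubn2 replicate 2 and without control replicate 2, and Hoxd11 with no filter and without control replicate 2. With no filter and with all 8 libraries 6 Hox genes were called higher, in place of 4. DESeq2 called Hoxa3 and Hoxb9 higher and Hoxc4 lower, and a demand for 10 counts in every library left Hoxc4 untested.

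The Ubn2 libraries also held transcripts of other tissues. Of 12 heart and skeletal muscle markers, all tested, 10 rose and 1 fell, and the list summed to 37.1 to 45.5 CPM in control and 263 to 412 after Ubn2 depletion, with none at 0. Actc1 had 2 and 6 counts in control and 1856 and 975 after Ubn2 depletion. Of 4 tested erythroid markers 2 rose, from a sum of 1.46 to 1.63 CPM to 6.17 to 9.65 for the list of 10, with the embryonic globins Hba-x, Hbb-y and Hbb-bh1 at 0 and the adult globin Hbb-bs, whose reads are hard to separate from its close copy Hbb-bt, at 75 and 45 counts. Of 9 tested fibroblast markers 4 rose and 3 fell, and their list of 12 summed to 72.0 to 73.6 CPM in control and 55.6 to 59.7 after Ubn2 depletion, none at 0. The sum was lower although genes without a count in either control were detected. Col3a1 had 147 and 81 counts after Ubn2 depletion, Postn 29 and 14, Dcn 21 and 3, Lum 6 and 1 and Prrx1 3 and 4. Pdgfrb, Fbln2 and Thy1, which control cells expressed, were the 3 that fell. Replicate 1 of the Ubn2 libraries exceeded replicate 2 by 1.57 times in the muscle sum and by 1.57 times in the erythroid sum. The same ratio was 0.82 for Hoxa3, 1.08 for Hoxa5, 0.63 for Hoxa7, 1.26 for Hoxb9 and 1.80 for Hoxc4. The part of these transcripts in the Hox values was not tested.

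**Figure D4:**
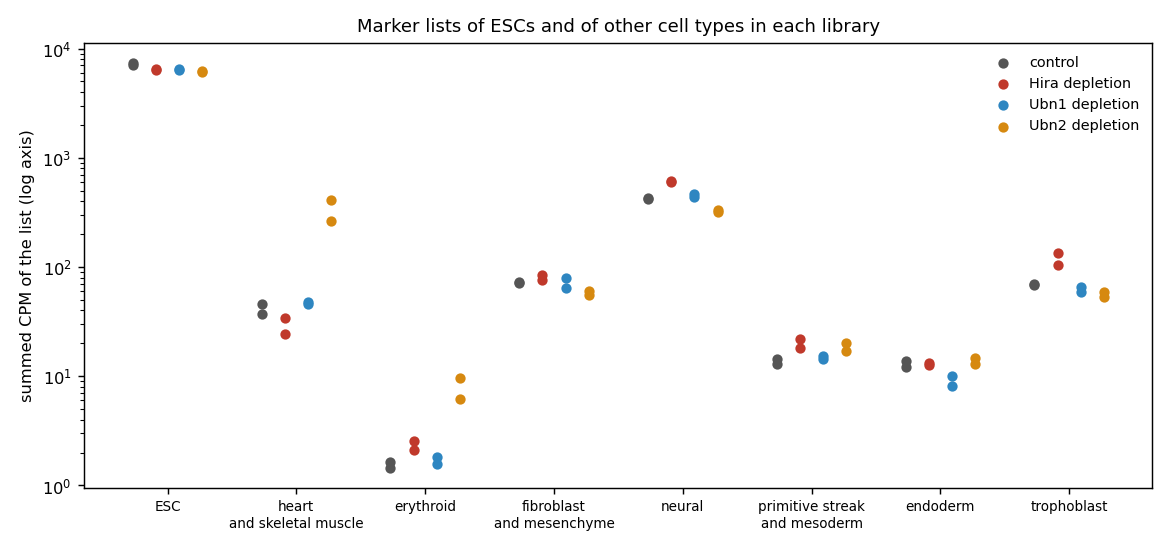
Summed CPM (log axis) of 8 marker lists in each library, coloured by condition. The sum of the ESC list lies between 6116 and 7383 CPM and is highest in the control libraries. The muscle and erythroid lists are high in both Ubn2-depleted libraries (263 to 412 and 6.17 to 9.65 CPM), and the neural and trophoblast lists are highest after Hira depletion.

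The Hira and Ubn2 comparisons share their 2 control libraries, so their calls are not independent. The depletions were therefore also set directly against each other, without the controls. These direct comparisons share depleted libraries, so their calls are not independent of each other either. Between Hira and Ubn2 depletion 4 of 17 tested Hox genes differed, where 17.6% of all genes did. Of the 17, 3 had passed the filter through the Hira libraries alone, and 2 of these, Hoxa9 and Hoxc4, were called. The count is near the share over all genes and, with the filter not neutral, cannot be read against it. Hoxa9 was higher after Hira depletion, by 3.03 on the log2 scale (SE 0.65, adjusted p = 0.00223, edgeR), a ratio of 68 to 6 counts of 8.66 with a counting interval of 3.78 to 24.4. Hoxc4 was also higher after Hira depletion (1.87, SE 0.48, adjusted p = 0.00753, edgeR). Hoxb9 and Hoxb13 were lower after Hira than after Ubn2 depletion, by log2 values of -0.83 (SE 0.25, adjusted p = 0.0166) and -1.04 (SE 0.33, adjusted p = 0.0242) in edgeR. Hoxa3, Hoxa5 and Hoxa7 were not called between them, at log2 differences of -0.45, 1.06 and -0.21 with SEs of 0.36, 0.48 and 0.42, which does not show that they were alike. Without Hira replicate 2 only Hoxa9 and Hoxc4 were called, without Ubn2 replicate 2 only Hoxa9 and Hoxb9, and without Ubn2 replicate 1 Hoxb9 was lost.

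Between Hira and Ubn1 depletion 5 of 15 tested Hox genes differed, all higher after Hira depletion and all in HoxA, where 12.7% of all genes differed in either direction. They were Hoxa2, Hoxa5, Hoxa7, Hoxa9 and Hoxa11, with log2 differences from 1.41 (Hoxa7) to 3.23 (Hoxa2). Of the 15 genes, 5 had passed the filter through the Hira libraries alone, and these held 4 of the 5 calls, Hoxa2, Hoxa5, Hoxa9 and Hoxa11, so the count cannot be read against that background. Leaving out Hira replicate 1 left no call in edgeR, and without Hira replicate 2 Hoxa2, Hoxa7 and Hoxa11 were lost and Hoxa3 and Hoxb3 called. Without Ubn1 replicate 1 the calls were Hoxa7 and Hoxa9, and without Ubn1 replicate 2 they were Hoxa2 and Hoxa9.

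Between Ubn2 and Ubn1 depletion 5 of 13 tested Hox genes differed, where 8.7% of all genes did. Of the 13, 3 had passed the filter through the Ubn2 libraries alone, and none of these was called. With the filter not neutral here either, the count cannot be set against that share. Hoxa3, Hoxa7, Hoxb9 and Hoxb13 were higher after Ubn2 depletion, by log2 values of 1.67, 1.62, 1.502 and 2.09, and Hoxc4 was lower at -1.66. The largest of these differences, that of Hoxb13, lay between 0.593 and 0.538 CPM after Ubn1 depletion and 2.16 and 2.70 in Ubn2-depleted cells (SE 0.39, adjusted p = 0.00139, edgeR). Hoxc4 lost its call whichever of the 4 libraries was left out, Hoxa7 lost it also without Ubn2 replicate 1 or Ubn1 replicate 2, and without Ubn2 replicate 2 the calls were Hoxb9 and Hoxb13.

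Genes around the Hox clusters were read from a list of noncoding genes named for them, of which 17 were in the tables. After Hira depletion 4 of 6 tested rose, where 10.8% of all genes tested were called higher. Of the 4, Hoxb3os, Hoxa11os and Hoxaas3 passed the filter on low counts through the Hira libraries alone. This count therefore cannot be set against that share. Hotairm1, a noncoding gene of the HoxA cluster, had 23 and 35 counts in control and 104 and 74 after Hira depletion (log2 fold change 1.56, SE 0.31, adjusted p = 0.000519, edgeR). Hoxb3os, antisense to Hoxb3, had 0 and 0 counts in control and 18 and 8, and Hoxa11os, antisense to Hoxa11, 5 and 5 against 23 and 14. Hoxaas3, which runs antisense through the middle of HoxA, also rose, with 3 and 3 against 15 and 12 counts. Exons of Hoxb3os overlap those of Hoxb3 and Hoxb2, those of Hoxa11os overlap Hoxa11, and those of Hoxaas3 overlap Hoxa3 and Hoxa7. With the strand setting unknown, reads of these noncoding genes and of the Hox genes they overlap cannot be told apart. Halr1, a noncoding gene beside HoxA, was at 27.6 and 27.3 CPM in control and at 21.4 and 27.4 after Hira depletion. After Ubn1 depletion none of 3 tested noncoding genes was called by edgeR (0 at an unadjusted p below 0.05), and after Ubn2 depletion 2 of 3 rose, Hotairm1 by 1.18 (SE 0.34) and Halr1 by 0.76 (SE 0.11) on the log2 scale.

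Of the Cdx, ParaHox and Evx genes, which are homeobox relatives and regulators of Hox genes, 4 of 8 were tested after Hira depletion and 2 rose. Both of these, Evx1 and Cdx2, passed the filter on low counts through the Hira libraries alone. The count therefore cannot be set against the 10.8% of all genes called higher. In the Ubn2 comparison Evx1 likewise passed through the Ubn2 libraries alone. Evx1, which lies beside the 5′ end of HoxA, had 2 and 5 counts in control, 37 and 27 in Hira-depleted cells, 7 and 6 in Ubn1-depleted cells and 31 and 19 in Ubn2-depleted cells. It rose by 3.11 (SE 0.59, adjusted p = 0.000320) after Hira and by 3.13 (SE 0.61, adjusted p = 0.000324) after Ubn2 depletion in edgeR. Cdx2, an activator of Hox genes in the tail bud and a trophoblast gene, had 0 and 7 counts in control and 37 and 16 after Hira depletion, and rose by 2.82 (SE 0.69). Its relative Cdx1 had 261 and 414 counts in control and 101 and 101 after Ubn2 depletion, and fell by 1.40 on the log2 scale (SE 0.17), while Gsx2 rose by 1.24 (SE 0.45). After Ubn1 depletion 2 of these genes were tested and none was called by edgeR, with 1 at an unadjusted p below 0.05.

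TALE proteins are the DNA-binding partners of HOX proteins, and all 9 genes of this list were tested in each comparison. The shares of all tested genes called higher were 10.8%, 1.53% and 9.59% after Hira, Ubn1 and Ubn2 depletion. After Hira depletion Meis3, Pknox2 and Meis1 rose, by 1.66, 1.70 and 1.34 on the log2 scale (SE 0.26, 0.33 and 0.39). After Ubn2 depletion Meis2, Pknox2 and Meis1 rose, by 2.38, 1.85 and 1.49 (SE 0.19, 0.30 and 0.38), and after Ubn1 depletion Meis2 alone, by 1.32 (SE 0.23). No TALE gene fell. The list summed to 117 to 122 CPM in control, 140 to 142 after Hira, 128 to 131 after Ubn1 and 133 to 136 after Ubn2 depletion.

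Retinoic acid is the classical inducer of Hox genes in cultured ESCs. Of its pathway genes, 7 of 16 tested rose and 1 fell after Hira depletion. The receptor Rxra rose by 0.91 (SE 0.12) and Dhrs3, an enzyme that reduces retinaldehyde, by 1.15 (SE 0.25), while Stra8, a retinoic acid target of germ cells, fell by 0.84 (SE 0.14) on the log2 scale. After Ubn1 depletion Rxra alone was called among 14 tested, by 0.70 (SE 0.13). After Ubn2 depletion Rxra rose by 0.92 (SE 0.11), and Crabp1, a retinoic acid-binding protein, and Stra8 fell by 1.36 (SE 0.11) and 1.90 (SE 0.19), of 13 tested. Of the signals and factors of the posterior embryo, 4 of 13 tested rose after Hira depletion and 2 fell. Wnt5a rose by 2.02 (SE 0.37), Wnt3 by 2.08 (SE 0.66) and Fgf4, an ESC growth factor, fell by 0.60 (SE 0.07). Wnt3, with 7 and 2 counts in control and 26 and 16 after Hira depletion, passed the filter on low counts through the Hira libraries alone. None of 11 was called after Ubn1 depletion by edgeR, with 3 at an unadjusted p below 0.05. After Ubn2 depletion 1 of 11 rose, Wnt8a by 1.61 (SE 0.45), and 4 fell, among them Fgf4 by 0.62 (SE 0.07) and Fgf3 by 1.69 (SE 0.37). Of all genes tested, 10.8%, 1.53% and 9.59% were called higher after Hira, Ubn1 and Ubn2 depletion, and 5.4%, 1.56% and 8.75% lower. Genes low in control can pass the filter through the depleted libraries alone, which limits the comparison of the counts in both lists with these shares.

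Polycomb complexes keep Hox genes silent, and MLL proteins and H3K27 demethylases oppose them. Among all tested genes, 10.8%, 1.53% and 9.59% were called higher after Hira, Ubn1 and Ubn2 depletion, and 5.4%, 1.56% and 8.75% lower. Of 12 PRC2 genes, Phf19 alone was called after Hira depletion, rising by 0.73 (SE 0.11). There 9 of the 12 had an unadjusted p below 0.05 in edgeR, and the median log2 fold change of the list was -0.24. None was called after Ubn1 depletion by edgeR (5 at an unadjusted p below 0.05). After Ubn2 depletion Epop and Phf1 rose by 0.61 (SE 0.07) and 0.73 (SE 0.16) and Ezh1 fell by 0.85 (SE 0.10). The PRC2 list summed to 2334 to 2361 CPM in control and 1910 to 2096 after Hira depletion. It summed to 2238 to 2419 CPM after Ubn1 and 2475 to 2638 after Ubn2 depletion. Of 20 PRC1 genes, 4 rose and none fell after Hira depletion, led by Phc2 at 0.63 (SE 0.10) and Bmi1 at 0.84 (SE 0.20). Bmi1 alone was called after Ubn1 depletion, at 0.81 (SE 0.20), and after Ubn2 depletion 3 rose and 1 fell, with Bmi1 at 1.70 (SE 0.16), Bcor at 1.09 (SE 0.10) and Pcgf5 at -0.66 (SE 0.16). None of the 13 MLL and H3K27 demethylase genes was called in any of the 3 comparisons by edgeR, with 3, 1 and 6 at an unadjusted p below 0.05 after Hira, Ubn1 and Ubn2 depletion.

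A list of 60 other developmental transcription factor genes, many of them also Polycomb targets in ESCs, was read beside the Hox genes. After Hira depletion 9 of 30 tested rose and 1 fell, with a median log2 fold change of 0.58. After Ubn1 depletion 1 of 21 rose and 1 fell with a median of 0.21. After Ubn2 depletion 7 of 27 rose and none fell with a median of 0.49. In the same order, 10.8%, 1.53% and 9.59% of all genes tested were called higher and 5.4%, 1.56% and 8.75% lower. Over all genes tested the median was 0.01, -0.00 and -0.00. Genes low in control can pass the filter on low counts through the depleted libraries alone, which limits the comparison of both the counts and the medians. The genes with the smallest adjusted p were Tbx20 (2.08, SE 0.29), Otx2 (0.67, SE 0.11) and Six6 (4.11, SE 1.04) after Hira depletion, and Otx2 (0.97, SE 0.11), Tbx3 (0.71, SE 0.08) and Msx2 (1.59, SE 0.34) after Ubn2 depletion. Six6 rested on 0 and 1 counts in control and 13 and 9 after Hira depletion. Tbx20 is a heart gene, Otx2 and Six6 are genes of the forebrain and eye, Tbx3 also acts in ESCs and Msx2 acts in limbs and skull. After Ubn1 depletion Otx2 rose by 0.73 (SE 0.12) and Gata6, an endoderm gene, fell by 1.10 (SE 0.30).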

How the data were processed

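RNA-seq was measured in 8 libraries, 2 per condition, from mouse E14 ESCs. The authors trimmed reads with Trim Galore, used STAR for alignment (GRCm38) and featureCounts for counting, per the submitters' processing notes, and deposited raw counts per gene in 3 tables, each holding 1 depletion beside the same controls (0 differing control values). Tool versions and strand setting are not given in the sources used here. Counts were tested in edgeR 4.0.16 (R 4.3.3): TMM scaling (factors 0.970 to 1.06), filterByExpr, quasi-likelihood F test, Benjamini-Hochberg adjustment over all genes tested, with calls at adjusted p below 0.05 and fold change above 1.5. Only the groups compared entered a fit. CPM used TMM-scaled totals. The procedure was tested on simulated data, in which only genes averaging at least 10 counts were changed and all genes shared a single spread. That test therefore does not cover members with fewer counts. Alternatives were DESeq2 1.42.0, its size factors in edgeR, other filters, all 8 libraries, adjusted p alone, a replicate block and leaving out each library. Library totals of 19710040 to 32706053 limit precision for genes of a few counts.

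Values are printed in every library for each member called against control and for the member with the highest CPM of each cluster. From 9 pathway lists (TALE cofactors, Cdx, ParaHox and Evx genes, noncoding Hox-named genes, retinoic acid pathway, posterior inducers, PRC2, PRC1, MLL and demethylase genes, other developmental factors) up to 3 genes with the smallest adjusted p are named, and 8 marker lists were read as well. Values by library of Evx1, Cdx2, Cdx1, Hotairm1, Hoxb3os, Hoxa11os, Hoxaas3, Hoxb13, Hoxc10, Halr1, Actc1, Hbb-bs, Col3a1, Postn, Dcn, Lum and Prrx1, and the naming of Hoxb3, were chosen after their values were seen. The same holds for the values by library of Sox2, Nanog, Dppa5a, Wnt3 and Six6. Some genes are not reported here, and counts, sums and plots of members and lists leave them out. The members and lists were chosen with earlier results of these data known. Positions and exon lengths are from GENCODE M21 and promoters from RefSeq.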

Additional observations from a re-analysis of the deposited data

Results flagged for a closer look

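The Hox genes that differed between 2 depletions in a direct test (edgeR quasi-likelihood, 2 libraries against 2, log2 differences) are worth a second look, because each compares responses without the shared controls. The direct tests share depleted libraries with each other, so their calls are not independent. Between Hira and Ubn2 depletion, Hoxa9 differed by 3.03 and Hoxc4 by 1.87, both higher after Hira depletion, and Hoxb9 by -0.83 and Hoxb13 by -1.04, both higher after Ubn2 depletion. Hoxa9 and Hoxc4 had passed the filter through the Hira libraries alone, and the number of genes called was near the share over all genes. Between Hira and Ubn1 depletion, 5 HoxA genes were higher after Hira depletion, Hoxa2 by 3.23, Hoxa5 by 1.73, Hoxa7 by 1.41, Hoxa9 by 3.04 and Hoxa11 by 1.67. The last, with an adjusted p of 0.0496, rests on 37 counts against 10, a ratio of 3.28 with a counting interval of 1.60 to 7.40. Of these 5, Hoxa2, Hoxa5, Hoxa9 and Hoxa11 had passed the filter through the Hira libraries alone. Between Ubn2 and Ubn1 depletion, Hoxa3 was higher after Ubn2 depletion by 1.67, Hoxa7 by 1.62, Hoxb9 by 1.502 and Hoxb13 by 2.09, and Hoxc4 differed by -1.66.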

How the results depend on the processing

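With 2 libraries per group and few counts, many Hox calls were lost under 1 alternative or more, and no called direction reversed. Of 270 values of the 26 called gene results under alternatives, 208 kept their direction and call, 62 kept the direction but lost the call and 0 reversed, and 25 could not be had because the gene was filtered or had no adjusted p. Hoxa5 and Hoxa9 after Hira depletion and Hoxa3, Hoxb9 and Hoxc4 after Ubn2 depletion kept their calls under every alternative that gave a value. DESeq2 gave 4 higher genes after Hira, 2 higher after Ubn2, 2 called between Hira and Ubn2, 1 between Hira and Ubn1 and 2 between Ubn2 and Ubn1. A demand for 10 counts in every library gave 2 higher after Hira, 2 higher and 0 lower after Ubn2, 2 between Hira and Ubn2, 1 between Hira and Ubn1 and 3 between Ubn2 and Ubn1. Fewer members were tested there, but Hoxa7 after Hira depletion and Hoxa3 between Hira and Ubn1 were calls gained, for which the cause was not tested. Under this filter, with no filter and with all 8 libraries 1 gene, Hoxb13, was lower after Ubn1 depletion, and the cause was not tested. Leaving out 1 library gave 2 to 5 higher and 0 to 1 lower genes after Hira, 3 to 4 higher after Ubn2, 2 to 4 between Hira and Ubn2, 0 to 4 between Hira and Ubn1, and 2 to 4 between Ubn2 and Ubn1, where the lone library is assumed to vary like the others. Over all genes, adjusted p alone called 6644, 1426 and 7118 genes after Hira, Ubn1 and Ubn2 depletion against 3077, 568 and 3343 with the fold limit, and DESeq2 called 295 after Ubn1 depletion.

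A replicate block gave 8 higher genes after Hira (Hoxd13 added), 1 lower after Ubn1 (Hoxb13), 4 higher and 1 lower after Ubn2, and 4, 3 and 6 in the direct comparisons of Hira with Ubn2, Hira with Ubn1 and Ubn2 with Ubn1. The libraries share only a number: same-numbered deviations correlated at -0.134 to 0.127 over 16261 genes in the 6 comparisons. For the first 2 direct comparisons, at -0.134 and -0.131, a block with crossed numbers, added after seeing the data, gave 5 and 6 calls.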

Other observations

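The marker lists not described above gave the counts below in edgeR. Beside them, 10.8%, 1.53% and 9.59% of all tested genes were called higher after Hira, Ubn1 and Ubn2 depletion, and 5.4%, 1.56% and 8.75% lower. After Hira depletion 2 of 6 tested fibroblast markers rose and 1 fell, 2 of 8 muscle markers fell, 1 of 6 primitive streak and mesoderm markers rose (Kdr) and 1 fell (Tbx6), 1 of 6 endoderm markers rose (Sox17), and no erythroid or ESC marker was called, with 0 of 2 and 7 of 10 at an unadjusted p below 0.05. After Ubn1 depletion 1 of 8 neural markers rose (Tubb3) and 1 fell (Neurod1), Gata6 fell among 6 endoderm markers and Ascl2 among 5 trophoblast markers. No ESC, fibroblast, muscle, erythroid or streak marker was called there, with 5, 0, 1, 0 and 0 at an unadjusted p below 0.05. After Ubn2 depletion the ESC genes Tdgf1 and Dppa5a fell, 2 of 8 neural markers rose and 2 fell, Kdr rose and the mesoderm factor T fell among 4 streak markers, 1 of 7 trophoblast markers rose and 3 fell, and none of 6 endoderm markers was called, with 2 at an unadjusted p below 0.05.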
